A study of Drosophila melanogaster with 6 samples.

Results

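The maltase genes of *Drosophila melanogaster* were taken as every gene whose name in the authors' deposited table begins with Mal-A or Mal-B and a digit. This rule found 10 of 14862 genes, of which 8 form the maltase A cluster on chromosome arm 2R and 2 form the B pair on 2L. The genes were picked by name, but the family was chosen with the fold changes of the authors' deposited table already known, so the values of that comparison are given as a description and no test was made with them. The title of the table names its groups con and InR, taken here as GFP control and InR-DN. The labels list 3 samples of each, all of stage 14 oocytes, the last stage before the egg is laid. GFP is an inert fluorescent protein, and InR-DN is what the submitters use to suppress insulin signalling, with InR the insulin receptor. Each sample held RNA from 200 oocytes of flies kept on standard food with yeast paste. The sources used here do not give the driver behind GFP or InR-DN, the age of the flies or whether the pools came from separate crosses.

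Maltases are alpha-glucosidases that split maltose and related sugars into glucose. In the fly they act mainly at the surface of midgut cells, where they complete the digestion of starch begun by amylases. Several members were first described as larval visceral proteins, and the reference gene table still carries the synonyms LvpH, LvpD and LvpL for Mal-A1, Mal-A2 and Mal-A3.

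The table holds 1 fitted value per gene and none per sample, so depth is unknown and no spread between replicates could be computed. A fold change is on the log2 scale as the authors deposited it, and which group is the numerator is not stated, so a positive value is not assigned to either group. CPM are reads of a gene scaled by the size of its library, and the average log2 CPM is the authors' own mean over libraries that are not named. The SE given here is implied by the authors' likelihood ratio score, and a 95% interval is 1.96 of these SE on either side. It rests on the authors' model, is not a spread measured between samples, and says little about the largest folds, where 1 group may hold few reads or none. A gene was called when its adjusted p in the authors' deposited table was under 0.05, and the 13080 genes with a likelihood ratio above 0 are the tested genes. The title of the table calls the samples embryos, whereas the labels call them oocytes, and which of these it covers could not be settled from the files.

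Of the 10 maltase genes, 4 were called, all with positive fold changes and all in the A cluster, and the other 6 were not called. Positive calls made up 2.61% of the 13080 tested genes, negative calls 2.48% and calls in either direction 5.10%. Nothing is read from the maltase count against these shares, since the family was chosen with this comparison known. All 4 called members had an average log2 CPM below the median of tested genes, which was 3.81, and among the 3192 tested genes with an average log2 CPM from -2 to below 3 positive calls made up 6.89%. The median log2 fold change was 0.13 over the 10 members and 0.03 over all tested genes. The members ran from -1.93 to 5.82, and the plot of fold changes by gene shows 4 values far above 0 with the others near it or poorly measured.

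**Figure D1:**
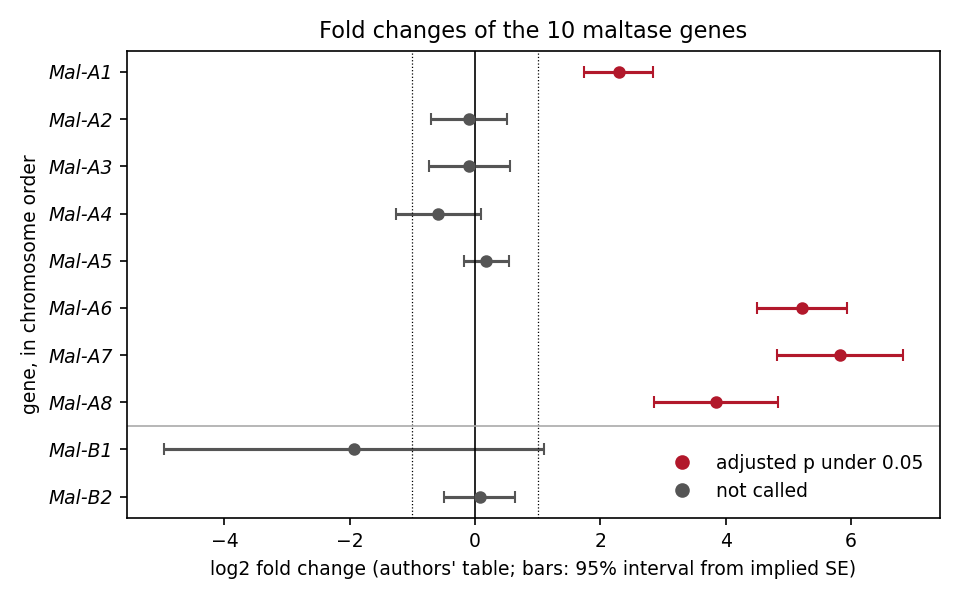
Log2 fold change of each maltase gene in the authors' deposited table (x axis), with genes in chromosome order (y axis), the A cluster above the grey line and the B pair below it. Points are fitted values, bars are 95% intervals from the implied SE, and dotted lines mark a 2-fold change. Mal-A1, Mal-A6, Mal-A7 and Mal-A8 lie from 2.29 to 5.82, while Mal-A2 to Mal-A5 lie from -0.59 to 0.18.

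Mal-A7 had the largest fold change of the family. In the authors' deposited table its log2 fold change was 5.82 (implied SE 0.51, interval 4.82 to 6.83), which is 56.6-fold, with an adjusted p of 1.9e-27. Its average log2 CPM was low, at -0.53 per the authors' deposited table, and whether the lower group held any reads is not known. Mal-A6 had a log2 fold change of 5.22 per the authors' deposited table (implied SE 0.37, interval 4.50 to 5.94), which is 37.1-fold, with an adjusted p of 6.8e-43. Its likelihood ratio score of 201.6 ranked 20 among all genes of the authors' deposited table, the highest of the maltases. Whether the folds of Mal-A6 and Mal-A7 differ was not tested.

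Mal-A8 was lower in both values. In the authors' deposited table its log2 fold change was 3.85 (implied SE 0.50, interval 2.86 to 4.84), which is 14.4-fold, with an adjusted p of 3.6e-12, at an average log2 CPM of -1.35. Mal-A1, the gene of larval visceral protein H, had the smallest fold of the called members and the highest average of them. Its log2 fold change in the authors' deposited table was 2.29 (implied SE 0.28, interval 1.74 to 2.84), which is 4.90-fold, with an adjusted p of 6.0e-14, at an average log2 CPM of 2.07. By fitted value Mal-A1 lay below Mal-A8, Mal-A6 and Mal-A7, and whether its fold differs from theirs was not tested.

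Mal-A5 was the most abundant maltase in the table and was not called. Its average log2 CPM was 6.51 per the authors' deposited table, above 81.2% of tested genes, and its log2 fold change was 0.18 (implied SE 0.18, interval -0.18 to 0.54). That interval is the narrowest of the family and lies within a 2-fold change in either direction. The next gene along the chromosome is Mal-A6, on the same strand, and the reference gene table lists CG8689 as an older name of both. In the authors' deposited table these neighbours had log2 fold changes of 0.18 and 5.22, and the difference between them was not tested. Scaled by merged exon length, the average was 5.44 log2 CPM per kilobase for Mal-A5 and 0.35 for Mal-A6. Their exons do not overlap in the reference annotation.

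Mal-A2 and Mal-A3, the genes of larval visceral proteins D and L, had nearly the same small fold change. The log2 fold change of Mal-A2 was -0.10 per the authors' deposited table (implied SE 0.31, interval -0.70 to 0.51) at an average log2 CPM of 0.01. That of Mal-A3 was -0.09 per the authors' deposited table (implied SE 0.33, interval -0.74 to 0.55) at an average log2 CPM of -0.69. Both intervals lay within a 2-fold change. Mal-A4 leaned to the negative side without a call, at -0.59 per the authors' deposited table (implied SE 0.35, interval -1.27 to 0.09), with an unadjusted p of 0.091 and an adjusted p of 0.67. These members had averages close to those of Mal-A7 and Mal-A8. With their implied SE, a log2 fold change of 0.94, 1.01 and 1.06 in size would have been needed for a call of Mal-A2, Mal-A3 and Mal-A4, so smaller changes would not have been called in them.

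The B pair held no called gene, and its members differed widely in abundance. Mal-B2 had an average log2 CPM of 4.55 per the authors' deposited table, the only maltase besides Mal-A5 above the median of tested genes. Its log2 fold change was 0.07 per the authors' deposited table (implied SE 0.29, interval -0.49 to 0.64), within a 2-fold change. Mal-B1 had an average log2 CPM of -3.74, close to the lowest of the authors' deposited table, which was -3.80. Its log2 fold change of -1.93 per the authors' deposited table (implied SE 1.55, interval -4.96 to 1.10) gives no direction. The fold change and average of Mal-B1 were the same as those of 4 other genes of the table to within 1e-06. No other maltase showed this. By its implied SE, a log2 fold change of 4.73 in size would have been needed for a call of Mal-B1. At so low an average the implied SE is itself uncertain, so 4.73 is not a firm limit.

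By average log2 CPM per kilobase of merged exon, the order of the family was Mal-A5 at 5.44, Mal-B2 at 3.33, Mal-A1 at 1.21, Mal-A6 at 0.35, Mal-A2 at -1.02, Mal-A3 at -1.53, Mal-A4 at -1.77, Mal-A7 at -1.97, Mal-A8 at -2.21 and Mal-B1 at -4.60. These are levels from the authors' averages, which carry no error, so it cannot be said which neighbours in this order differ beyond their spread. The averages are not given per group. The called members had folds from 4.90 to 56.6, so their places need not hold within either group. The value of Mal-B1 comes from an average close to the lowest of all genes. The called members stood at places 3, 4, 8 and 9 of the 10, and both of the most abundant members were among those with narrow intervals around 0. The plot of average against fold change shows the called members at low averages, with Mal-A6 set apart from other genes. By the larger of the differences in fold change and average, the gene nearest to Mal-A6 was 1.01 log2 units away. That distance was 0.15 for Mal-A1, 0.10 for Mal-A7 and 0.32 for Mal-A8.

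**Figure D2:**
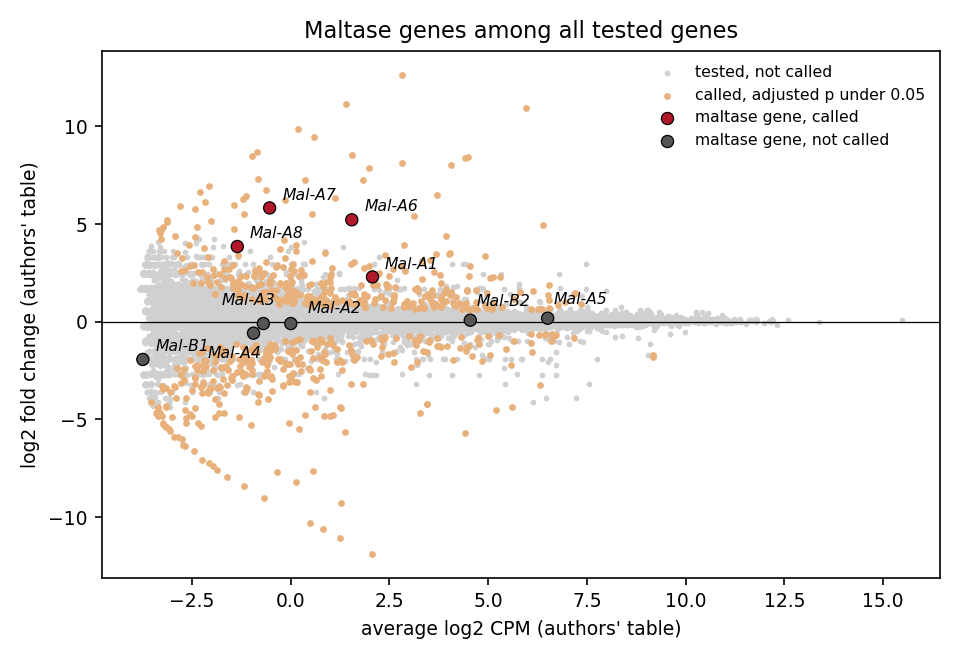
Average log2 CPM (x axis) against log2 fold change (y axis) for all 13080 tested genes of the authors' deposited table, each point a gene, with maltase genes as large labelled points. The 4 called maltases have averages from -1.35 to 2.07, and the abundant Mal-A5 and Mal-B2 lie near 0.

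In the order of the reference gene tables the 8 genes follow one another from Mal-A1 to Mal-A8 with no other RefSeq gene between them. The called genes were the first and the last 3 of the row, and the 4 between Mal-A1 and Mal-A6 were not called. Strand did not separate them, since Mal-A1 and Mal-A7 lie on the minus strand with Mal-A3, and Mal-A6 and Mal-A8 on the plus strand with Mal-A2, Mal-A4 and Mal-A5. Coordinates are not given because the authors' build is not given in the sources used here.

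Among the tested genes beside the A cluster 1 was called, on the negative side. Over all 13080 tested genes positive calls made up 2.61% and negative calls 2.48%. Of these genes 5769 had negative fold changes, and 1488 had an unadjusted p under 0.05 in the authors' likelihood ratio test. With so few flanking genes, nothing is read from their counts against these shares. Of the 10 flanking genes, 5 on each side, 7 were tested, all 7 had negative fold changes, and 2 had an unadjusted p under 0.05. The 1 called among them was Cyp4ad1, a cytochrome P450 gene, at -2.50 per the authors' deposited table (implied SE 0.56, adjusted p = 0.00037). The gene next to Mal-A1 is Cyp4e1, another cytochrome P450 gene, on the opposite strand, and their exons share 82 bases in the Ensembl annotation. Cyp4e1 was at -0.31 per the authors' deposited table (interval -1.34 to 0.73) with an average log2 CPM of -2.07. The gene next to Mal-A8 is mtt, a gene of the metabotropic glutamate receptor family, also on the opposite strand, with 6 shared exon bases. It was at -0.25 per the authors' deposited table (interval -2.31 to 1.81). Whether the counting used strand is not given in the sources used here, so reads in these shared bases cannot be assigned.

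Around the B pair 6 of 10 flanking genes were tested. Calls in either direction made up 5.10% of all tested genes, and nothing is read from so few genes against that share. None of the 6 passed in the authors' likelihood ratio test, while 2 had an unadjusted p under 0.05. Those 2, CG14933 and CG42486, named after their values were seen, had the same log2 fold change of -0.87 per the authors' deposited table, and they may not be separate results. Both B genes lie within Pde1c, a phosphodiesterase gene on the opposite strand, without sharing exon bases. Pde1c was at 0.20 per the authors' deposited table (interval -0.46 to 0.86).

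**Figure D3:**
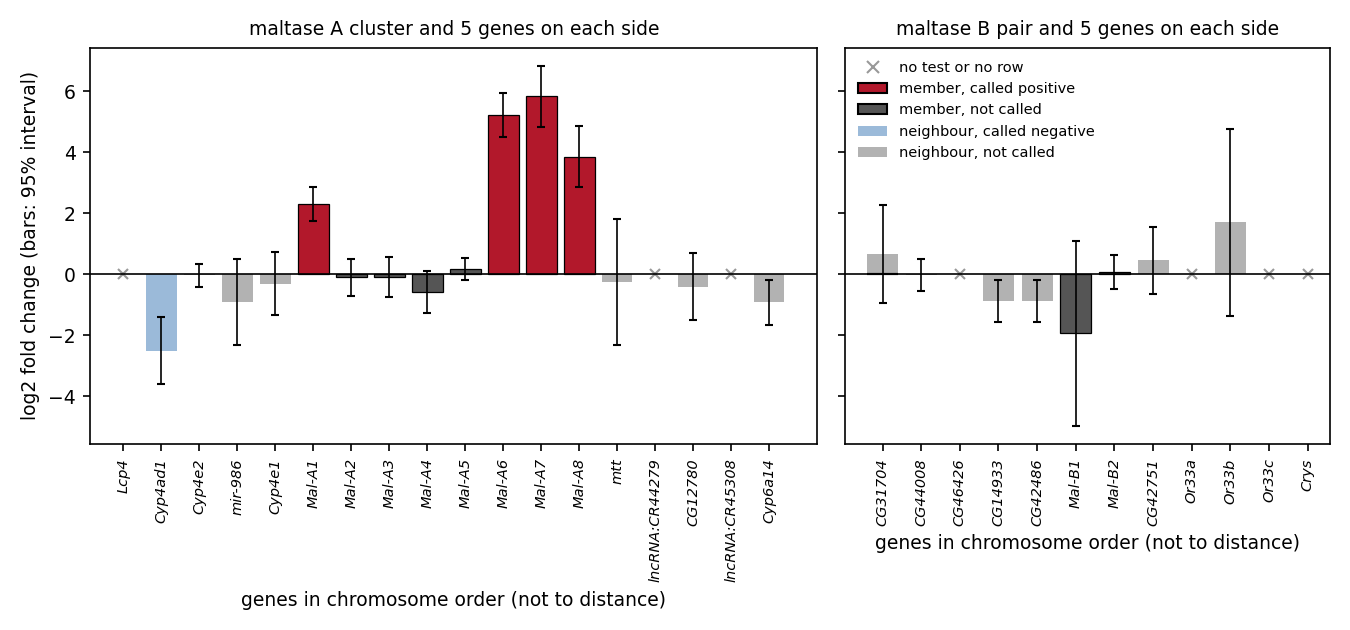
Log2 fold change (y axis) of the maltase A cluster (left) and B pair (right) with 5 genes on each side, in chromosome order and not to distance. Bars are fitted values of the authors' deposited table, whiskers are 95% intervals from the implied SE, outlined bars are maltases, and crosses are genes with no test or no row. Mal-A6, Mal-A7 and Mal-A8 stand next to each other between 3.85 and 5.82, and Cyp4ad1 is the only called neighbour, at -2.50.

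Among 16 other genes of carbohydrate breakdown, listed with earlier results of these data known, 4 were called positive, 1 was called negative and 11 were not called. Over all tested genes positive calls made up 2.61% and negative calls 2.48%, and nothing is read from the count against these shares. The median log2 fold change of the 16 was 0.07. The amylase genes, whose enzymes cut starch into the maltose that maltases use, were both called positive. Amy-d was at 3.44 per the authors' deposited table (implied SE 0.34, interval 2.78 to 4.10). Amy-p was at 2.85 per the authors' deposited table (implied SE 0.30, interval 2.26 to 3.44). The proximal and distal amylase genes are near-identical copies, so reads shared between them were not excluded. Their averages, 2.40 and 2.80 log2 CPM in the authors' deposited table, were near that of Mal-A1. Amyrel, the diverged amylase-related gene, had a low average of -2.52 log2 CPM and was not called, at 0.50 per the authors' deposited table (interval -0.53 to 1.54).

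The remaining calls of this list were in lysosomal-type glycosidases. Gal, a beta-galactosidase gene, was at 1.87 per the authors' deposited table (implied SE 0.41). The alpha-mannosidase genes differed in sign: LManIII, listed as CG9463, was at 0.91 (implied SE 0.27) and LManV, listed as CG9466, at -1.56 (implied SE 0.27) per the authors' deposited table. The alpha-glucosidase gene tobi, known in flies as a target of brain insulin, was not called, at -0.14 per the authors' deposited table (implied SE 0.55, interval -1.21 to 0.93). Treh, the gene of trehalase, which splits the blood sugar trehalose, was abundant and not called, at 0.18 per the authors' deposited table (implied SE 0.21, interval -0.23 to 0.58).

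Among genes that move sugars or control carbohydrate digestion there was no call. Over all 13080 tested genes, calls in either direction made up 5.10%. In the authors' likelihood ratio test 1488 of them had an unadjusted p under 0.05. Nothing is read from the counts of these short lists against those shares. Of 11 sugar transporter genes, 9 were matched and tested, with a median log2 fold change of -0.11. None of the 9 passed in the authors' likelihood ratio test and 1 had an unadjusted p under 0.05. That gene was sut2, at 2.30 per the authors' deposited table (interval 0.65 to 3.94), with an adjusted p of 0.11 in that test. Of 15 regulators, which include the TGF-beta ligand gene daw, its receptors and Smads, sugar-sensing transcription factors and gut GATA factors, 14 were matched and tested. None of the 14 passed in the authors' likelihood ratio test, 1 had an unadjusted p under 0.05, and the median was 0.07. The 1 was daw, at 0.78 per the authors' deposited table (interval 0.18 to 1.39), with an adjusted p of 0.18 in that test.

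Some markers of cells other than the oocyte were called positive, in lists drawn up with earlier results of these data known. Positive calls made up 2.61% of all tested genes, and 6.89% of those averaging from -2 to below 3 log2 CPM. Nothing is read from the marker counts against these shares. Of 9 midgut markers 4 were called positive, 1 was called negative and 4 were not called, with averages from -0.43 to 6.99 log2 CPM and a median log2 fold change of 0.39. The secreted midgut enzymes LysB, Jon99Ci, epsilonTry and alphaTry were at 8.55, 8.12, 7.25 and 4.39 per the authors' deposited table. The 4 markers that were not called are named after their values were seen. The absorptive cell markers mex1 and Myo31DF were at 0.37 (interval -0.40 to 1.15) and 0.32 (interval -0.15 to 0.79) per the authors' deposited table. GATAe and nub, which encode transcription factors, were at 0.39 (interval -0.42 to 1.19) and -0.77 (interval -1.52 to -0.02) per the authors' deposited table, and nub had an unadjusted p of 0.045. Myo31DF and nub averaged 6.11 and 6.99 log2 CPM, above the secreted enzymes, which ran from 1.57 for LysB to 3.93 for alphaTry. The averages of mex1 and GATAe were 0.06 and 3.74. Which cells the reads of these markers came from was not tested. Npc1b, a gene of sterol uptake in the midgut, was called negative, at -1.20 per the authors' deposited table (implied SE 0.32). The part of midgut RNA in the maltase values was not tested, and fewer cells of a type and less RNA per cell cannot be told apart in pooled samples.

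The lists of this paragraph were also drawn up with earlier results known, and positive calls made up 2.61% of all tested genes. Calls in either direction made up 5.10%, and nothing is read from the counts of these lists against the shares. Of 5 fat body markers 2 were called, both positive, and the 5 averages ran from -3.49 to -0.28 log2 CPM. Lsp2 and Lsp1beta, larval serum proteins, were at 3.73 and 2.71 per the authors' deposited table. Of 5 haemocyte markers 1 was called, Pxn, at 1.64 per the authors' deposited table, while 2 had an unadjusted p under 0.05. The other of these 2, NimC1, was on the negative side, at -3.18 per the authors' deposited table (interval -6.20 to -0.16), and was not called. Of the 5 haemocyte markers 3 had positive and 2 had negative fold changes. Their averages ran from -3.69 to 3.59 log2 CPM, and the highest was that of Pxn. Of 5 muscle markers none passed in the authors' likelihood ratio test and 1 had an unadjusted p under 0.05, with averages from -3.05 to 1.67. All 5 had positive log2 fold changes, from 0.34 to 0.65. Among 10 oocyte markers such as osk, nos and bcd, and among 8 follicle and eggshell markers, none passed in the authors' likelihood ratio test and 0 had an unadjusted p under 0.05. The averages of the oocyte markers ran from 3.11 to 11.0 log2 CPM and those of the eggshell markers from 9.01 to 12.3. Some eggshell genes had wide intervals although their averages were high. The widest, that of Cp38 with an average log2 CPM of 12.2, ran from -1.21 to 1.46, past a 2-fold change in either direction. The part of these tissues in the maltase values was not tested either.

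**Figure D4:**
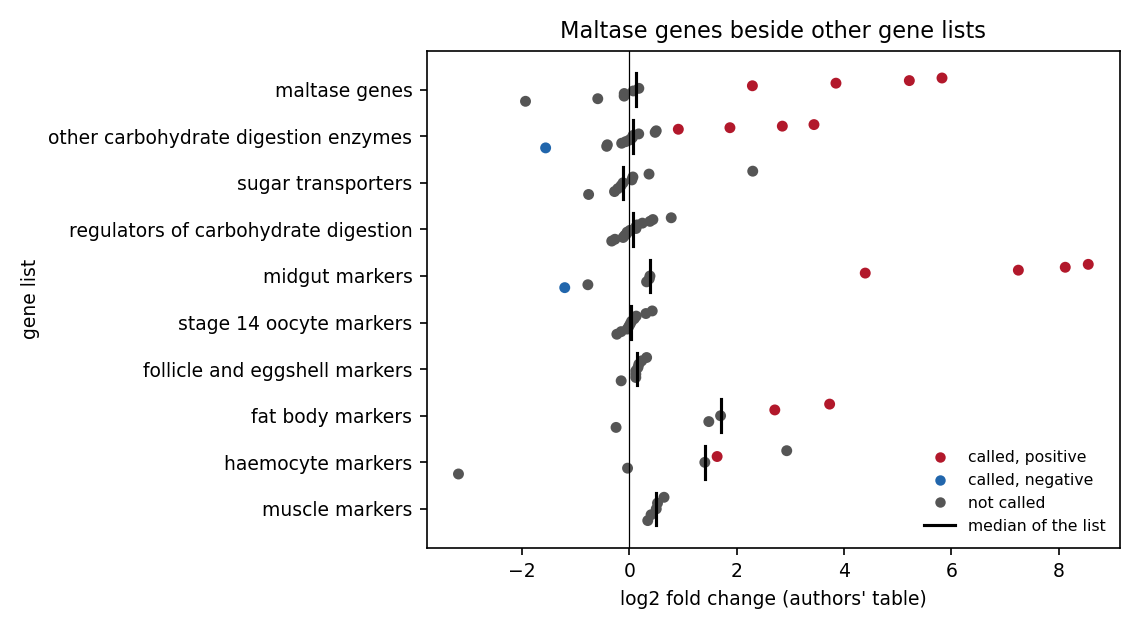
Log2 fold changes in the authors' deposited table (x axis) of the tested genes of each list (y axis), with each point a gene and the black line the median of its list. The 10 maltases hold 4 positive calls, and the 16 other carbohydrate digestion enzymes hold 4 positive and 1 negative, both with medians near 0. The sugar transporters, the regulators and the muscle, oocyte and eggshell markers hold no calls. Over all tested genes positive calls made up 2.61% and negative calls 2.48%.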

How the data were processed

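RNA of 6 pools of stage 14 oocytes was sequenced, 3 per group. Per the submitters' processing notes FastQC, Bowtie and TopHat were used. The sources used here give no genome build, annotation or read counter. The labels name polyA selection and also a stranded total RNA kit. The only file is the authors' deposited table, whose title includes glmLRT, the likelihood ratio test of edgeR. Per the file headers its values are fold changes and average CPM, both in log2, with the score of the test, its p-value and that p-value adjusted. The deposited p-values differed from the chi-square tail with 1 degree of freedom by at most 6.4e-15, and the adjusted p-values from a Benjamini-Hochberg adjustment over 14862 genes by at most 3.6e-15.

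The 1782 genes with a likelihood ratio of 0 were left out of the tested genes. The implied SE is the size of the log2 fold change over the root of the likelihood ratio, for ratios above 0.0001. The change needed for a call is the implied SE times the square root of 9.37, the smallest score among called genes. Gene order came from the RefSeq gene table of Release 6 plus ISO1 MT, and strand, exon overlap and merged exon length from Ensembl release 115, which need not match the authors' build. All 10 members matched both. The helper functions were tested on simulated data.

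The members and lists were chosen with earlier results of these data known. The rule for named genes takes all members, 5 enzymes fixed by name, and called genes of the lists (at most 4 for each list besides the enzymes) and of the flanking genes. Outside it, the fifth called midgut marker, those not called and the genes that overlap a member were named after their values were seen. The same holds for CG14933, CG42486, daw, sut2, NimC1, Cp38 and the oocyte markers given as examples. A count test had been planned for a count table, and the authors' adjusted p for a table like this one. Protein identity and promoter motifs had been planned and were not analysed here. Software was Python 3.11.15 with scipy 1.17.1, numpy 2.4.6, pandas 2.3.3 and, for plots, matplotlib 3.10.9.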

Additional observations from a re-analysis of the deposited data

How the results depend on the processing

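Mal-A1, Mal-A6, Mal-A7 and Mal-A8 stayed called at an adjusted p under 0.01, with adjustment over tested genes alone and with Holm adjustment. They also did with a log2 fold change of at least 1 in size required, and over genes averaging at least -2 log2 CPM. These settings reuse the deposited p-values. The 4 had adjusted p of 3.6e-12 or lower in the authors' likelihood ratio test and log2 fold changes of at least 2.29, so this outcome was fixed in advance. Alignment, counting and normalisation were not varied. Over genes averaging at least 0 log2 CPM, 2 members were called, Mal-A1 and Mal-A6, because only 5 members remained and Mal-A7 and Mal-A8 were not among them. The median over members was 0.18 over these 5 and 0.07 without Mal-A7. The other carbohydrate enzymes gave 4 calls at an adjusted p under 0.01, without LManIII. Cyp4ad1 stayed the 1 called neighbour under both alternatives, which were chosen after seeing the data. No paired analysis was possible because values of single samples were not analysed here, and leaving out replicates and a replicate block were not run for the same reason. Protein identity was not run. Without values per sample, depth and the weight of any single library are unknown.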
